A study of Mus musculus with 8 samples.

Results

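This account describes 10 genes that mark dendritic cells or their subsets in the pancreatic lymph node of mice lacking Deaf1. They are Cd207, which encodes langerin, the cross-presenting subset genes Clec9a, Xcr1 and Batf3, the lineage genes Irf8 and Flt3, the genes Cd209a, Fscn1 and Ly75, and the plasmacytoid gene Siglech. They were chosen by name from the gene column of the scanner files, with every probe kept, which gave 9 genes. Batf3 stood there under the older name 9130211I03Rik and was found through its accession, so that 10 genes with 13 probes were followed, out of 27597 genes with 41174 probes on the array. Xcr1, Irf8 and Ly75 had 2 probes each. All 13 probes passed the filter on dim signals, but Cd209a, a probe each of Xcr1 and Ly75, and Flt3 were not well above background on every array.

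Dendritic cells take up antigen, carry it to lymph nodes and present it to T cells. Cross-presenting dendritic cells, also called cDC1, load antigen taken up from other cells onto class I molecules and depend on Batf3 and Irf8. cDC2 present mainly to helper T cells, plasmacytoid dendritic cells make type I interferon, and the growth of all of these lineages is driven by the receptor Flt3. Langerin is a lectin of Langerhans cells of the skin and of some dermal and lymphoid dendritic cells. Mature dendritic cells that migrate to nodes carry Fscn1, an actin-bundling protein, and Ccr7, the chemokine receptor that guides them.

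The tested RNA came from BALB/c mice with a knockout of Deaf1, a transcription factor, at 4 weeks (2 mice), 12 weeks (3 mice) and 30 weeks (3 mice) of age, each labelled with Cy5 on an array of its own. Each array carried in Cy3 a pool of BALB/c wild-type littermates of that age, of 2 mice at 4 weeks and of 3 mice at 12 and 30 weeks. The labels name no sex and no treatment, and no array had its dyes swapped. Dye and genotype therefore cannot be told apart in the ratio of a probe, also where it has the same sign on all 8 arrays. Whole nodes were used, so fewer cells of a type and less RNA per cell cannot be told apart. A wild-type mouse was never hybridised against its pool, and the arrays of an age may share 1 pool, so the spread of the controls is in no test. Where knockout levels lie wholly above or below the pool values, this describes the arrays only. The same holds where the ratios of an age lie wholly apart from those of other arrays. How many of all genes separate in either way was not counted.

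The probe sequences below identify what was measured for Cd207 and for the genes whose 2 probes are set side by side. Each line gives the first 30 of the 60 bases of a probe as the files list it. The brighter probe of a gene, by its mean over all 8 arrays, comes first.
Cd207: ccttggaggagcttgggttaaacgggtgag
Xcr1, brighter probe: ttttttaagtgtctgttaatgagggggaaa
Xcr1, other probe: cagcacaacatcttcttcctcctctccatg
Irf8, brighter probe: aacagacagggtcgacagagtgtgtgatac
Irf8, other probe: ccaatctggctgtccaacctagtttgtaag
Ly75, brighter probe: cagttttcctaaaatatttttcttgaggcc
Ly75, other probe: attctgacatcctggccatctttggagagt
On mm8, the build the files name, the Cd207 probe lay on the minus strand at chr6:83637106-83637165. The probes of Xcr1, also on the minus strand, lay at chr9:123701062-123701121 (brighter) and chr9:123704740-123704799. Those of Irf8 lay on the plus strand at chr8:123642401-123642460 (brighter) and chr8:123641966-123642025. Those of Ly75 lay on the minus strand at chr2:60093144-60093203 (brighter) and chr2:60140083-60140142. No mm8 annotation was used here, so exons and untranslated regions are not named.

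Ratios are given on the log2 scale, knockout over wild-type pool, after normexp background correction and loess normalisation, and were tested with limma and called at an adjusted p under 0.05 over 18410 genes. Fitted ratios carry their standard error. Levels are log2 intensities of the Cy5 and Cy3 channels after normalisation between arrays. Levels of different probes are set against each other only to tell which probe of a gene is brighter. In the knockout channel 46.8% to 71.4% of probes were well above background, and in the wild-type channel 37.2% to 62.6%, the lowest shares being those of replicate 2 of 4 weeks. The arrays of 4 weeks shared neither slide, scanner nor software version with the later ones. Median centring of the arrays in place of loess does not remove a dye bias that varies with brightness. With median centring the median ratio of all genes was 0.49, 0.41 and 0.15 at 4, 12 and 30 weeks and 0.34 over their mean. It called 53%, 56% and 28% of all genes at these ages and 66.1% over their mean. Results under it are to be read against these medians and shares. With loess the list counts below are to be read against 22.7%, 2.61% and 39.1% of all genes called at the 3 ages. Deaf1 itself was well above background in both channels of every array, with ratios of −0.22 and −0.12 at 4 weeks, 0.34, 0.35 and 0.32 at 12 weeks and 0.14, 0.00 and 0.15 at 30 weeks. Whether its probe lies in the deleted part is not known here, so it does not check the labels. Replicate 2 of 12 weeks and replicate 2 of 30 weeks stood apart: their ratios correlated across genes at 0.078 and 0.17, and at 0.36 and 0.37, with the other arrays of their age, which correlated with each other at 0.58 and 0.89. On that 12-week array the ratio of Xist was 5.32 and that of Ddx3y was −3.89, against −0.40 and 0.33 for Xist and 0.91 and 0.62 for Ddx3y on the other 12-week arrays. All 9 T cell and all 9 B cell genes, which a lymph node should hold, were well above background in the knockout channel of every array, and at least 8 of each in the wild-type channels. The ratio of a probe also ran with its GC content on every array, with Pearson's r across genes between −0.32 and −0.10.

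At 4 weeks Cd207 fell and Siglech and Ly75 rose, 3 of the 10 genes, where 22.7% of all genes tested were called (15.3% higher and 7.38% lower). At 12 weeks none of the 10 passed the limma test, where 2.61% of all genes did (1.23% higher and 1.37% lower), although 3 had an unadjusted p under 0.05. At 30 weeks Xcr1 and Ly75 rose and Flt3 fell, 3 of 10 against 39.1% of all genes (20.7% higher and 18.4% lower). Over the mean of the 3 ages Xcr1 and Ly75 rose and Clec9a, Batf3, Flt3 and Fscn1 fell, 6 of 10 against 44.1% (25.4% higher and 18.7% lower). The share of the members called therefore lay near that of all genes at 4 and 30 weeks. The difference of 12 minus 4 weeks was called for Siglech, 1 of 10 against 6.98% of all genes (5.61% lower). That of 30 minus 4 weeks was called for Cd207, 1 of 10 against 18.8% (7.09% higher), and that of 30 minus 12 weeks for none against 0.777%, with 2 at an unadjusted p under 0.05. The median ratio of the 10 genes was −0.02, −0.21 and −0.07 at 4, 12 and 30 weeks, against medians of 0.02, 0.02 and 0.03 over all genes.

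**Figure D1:**
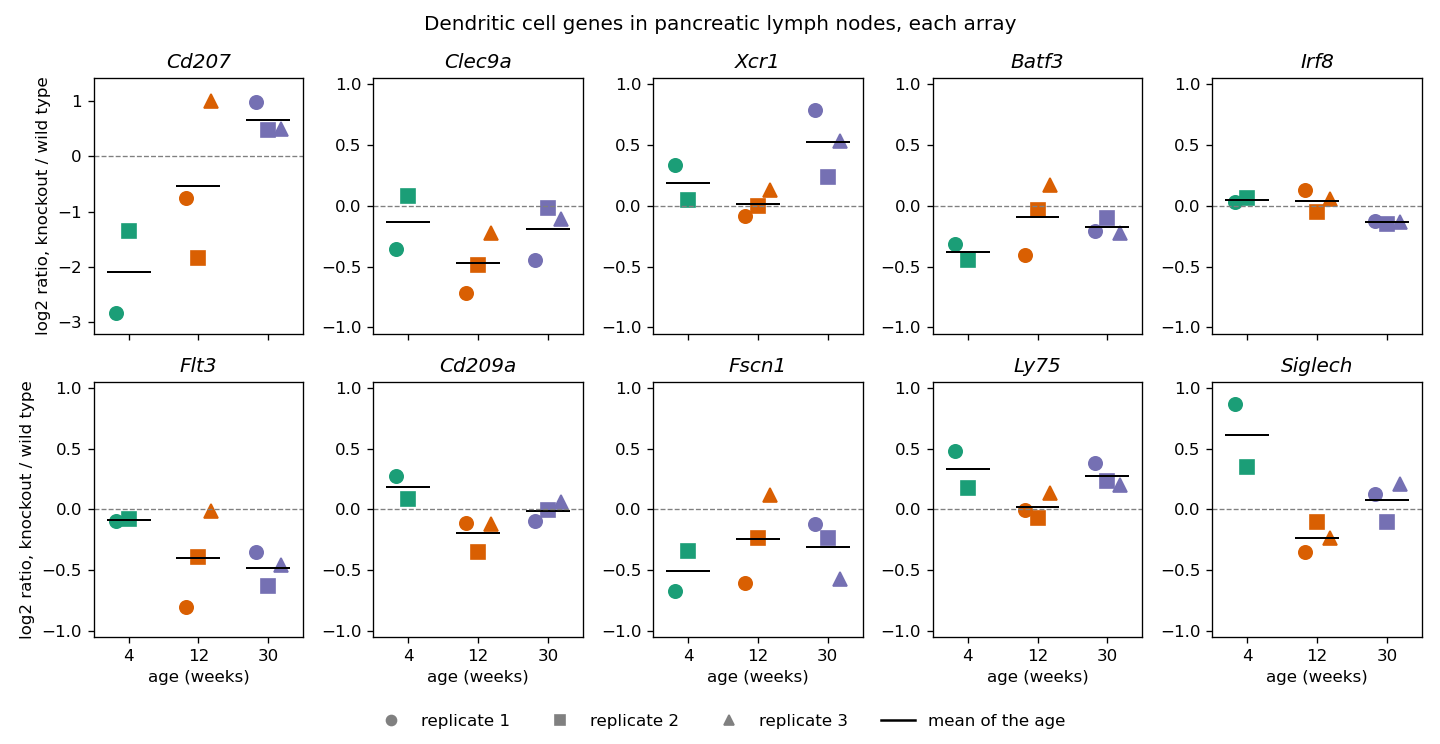
Log2 ratio of knockout over wild type of the 10 genes on each array (brighter probe where there are 2), by age in weeks, with shapes for the replicate numbers and a line at the mean of each age; the axis of Cd207 is wider than that of the other genes. Cd207 spans −2.83 to 1.00, while the other 9 genes lie between −0.80 and 0.87.

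Cd207 had the widest span of ratios of the 10 genes. Its knockout level at 4 weeks was 7.02 and 8.61, against 9.86 and 9.96 in the wild-type pool. The ratios were −2.83 and −1.36, both below 0, and the fitted ratio of −2.09 ± 0.57 (adjusted p = 0.0314, n = 2 arrays) was a 4.27-fold lower signal in knockout nodes. At 12 weeks the knockout level was 7.94, 6.91 and 9.79, against 8.70, 8.75 and 8.80 in the pool. The knockout mice thus lay on both sides of their pool at 12 weeks, with ratios of −0.75, −1.84 and 1.00 and a fitted ratio of −0.53 ± 0.46 (adjusted p = 0.498, n = 3). At 30 weeks the knockout level was 9.80, 9.15 and 9.19, against 8.83, 8.69 and 8.70 in the pool. All 3 ratios were above 0 there (0.97, 0.46 and 0.49), but the fitted 0.64 ± 0.46 did not pass the test (adjusted p = 0.307). The level ran from 6.91 to 9.80 over the 8 knockout mice and from 8.69 to 9.96 over the 8 wild-type channels, highest at 4 weeks. Since the wild-type channels of an age hold pooled RNA, these ranges do not compare the spread between mice.

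The Cd207 ratio was higher at 30 than at 4 weeks by 2.74 ± 0.73 (adjusted p = 0.0349), where 18.8% of all genes were called. The ratios of the 2 ages did not overlap, and how many of all genes separate so was not counted. The differences of 1.56 ± 0.73 from 4 to 12 weeks and 1.17 ± 0.66 from 12 to 30 weeks did not pass (adjusted p = 0.250 and 0.342). Age, pool, slide and scanner cannot be told apart in differences that involve 4 weeks. The 4-week call was lost without replicate 1 of 4 weeks (−1.36, adjusted p = 0.465), replicate 2 of 4 weeks (−2.83, 0.0522) or replicate 3 of 30 weeks (−2.09, 0.0516), and with median centring in place of loess (−1.37, 0.0696). The difference of 30 minus 4 weeks was lost without either array of 4 weeks (2.00 and 3.47) or any array of 30 weeks (2.57 to 2.83), with adjusted p between 0.0541 and 0.251. The 30 minus 4 weeks difference was also lost with median centring (2.24, adjusted p = 0.0577) and with replicate number as a block in the model (2.39, adjusted p = 0.0887). At 12 weeks the fitted ratio of Cd207 was 0.12 without replicate 2, the array that stands apart, and −1.30 without replicate 3.

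**Figure D2:**
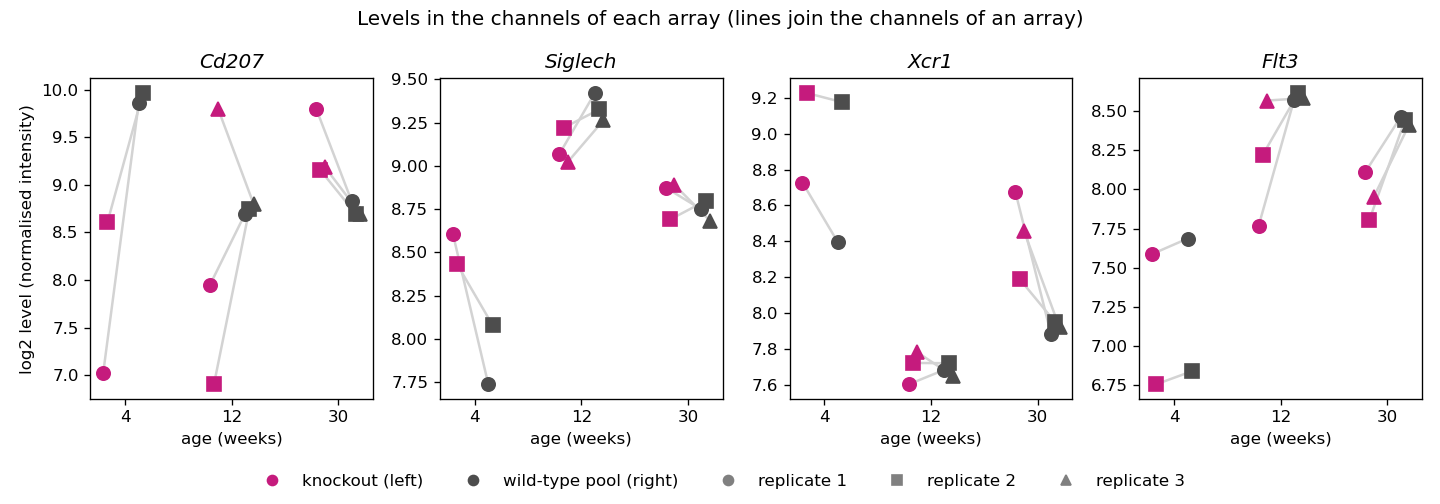
Log2 levels (normalised intensity) of 4 genes in the knockout channel (left of each age) and the wild-type channel (right) of each array, by age in weeks, with grey lines joining the channels of an array. The Cd207 level of the knockout mice runs from 6.91 to 9.80, while the wild-type pools lie at 9.86 and 9.96 at 4 weeks and between 8.69 and 8.83 at 12 and 30 weeks.

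Genes of fat and skin varied on some of the same arrays. The median ratio of 8 fat cell genes was −1.61 and −0.83 at 4 weeks, −1.47, −1.61 and −0.03 at 12 weeks, and −0.04, −0.46 and 0.41 at 30 weeks. The 4 arrays with the lowest medians of this list were the 4 arrays on which Cd207 lay below 0. The summed log2 level of the list was 14.00 to 14.12 in knockout nodes against 14.52 to 14.90 in the pool at 4 weeks, 14.16 to 15.57 against 15.33 to 15.50 at 12 weeks, and 14.43 to 15.36 against 14.80 to 14.85 at 30 weeks. Adipoq, the fat cell hormone adiponectin, had ratios of −1.73 and −1.16, then −2.57, −1.69 and −0.05, then −0.48, −0.92 and −0.08, and 7 of the 8 fat cell genes were well above background in the knockout channel on all arrays of an age. Of the list, 2 genes fell at 4 weeks and none passed at 12 or 30 weeks, while Adipoq, Cidec, Plin4 and Plin1 fell over the mean of the ages. On the scanner's signals 5 fell at 4 weeks and 5 over the mean. With median centring none fell at 4 weeks, 1 fell at 12 weeks and 1 over the mean, and those 4 genes lost their call. Without the arrays that stand apart 4 fell at 4 weeks.

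Of 8 skin and pigment genes, 1 rose and 2 fell at 4 weeks, 1 rose at 12 weeks and 1 at 30 weeks. The gene that rose at 4 weeks was Krt10, a keratin gene, by 0.33 ± 0.07 (adjusted p = 0.0148). It was 1.14 with median centring, and its call was lost on the scanner's signals (0.26, adjusted p = 0.0852). Dct, an enzyme of melanin synthesis, had a level of 5.78 and 7.003 in knockout nodes at 4 weeks, not well above background, against 10.49 and 8.86 in the pool. Pmel, a protein of pigment granules, was well above background on 1 of 2 arrays of 4 weeks in each channel. Its ratios there were −1.23 and −0.18 (fitted −0.71 ± 0.19, adjusted p = 0.0323), and the fitted value was −2.40 on the scanner's signals, so its size is uncertain. The keratin gene Krt14, of basal skin cells, was not well above background in either channel at 4 weeks. The summed log2 level of the skin list was 10.41 to 10.65 in knockout nodes against 10.79 to 11.46 in the pool at 4 weeks, where 1 of 8 genes in the knockout channel and 2 of 8 in the wild-type channel were well above background on both arrays. Digestive enzyme genes of pancreatic acinar cells had median ratios of −1.87 and −0.53 at 4 weeks and of −4.09, 4.03 and −4.50 at 30 weeks. The part of fat, skin and pancreas RNA in the Cd207 result was not tested.

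**Figure D3:**
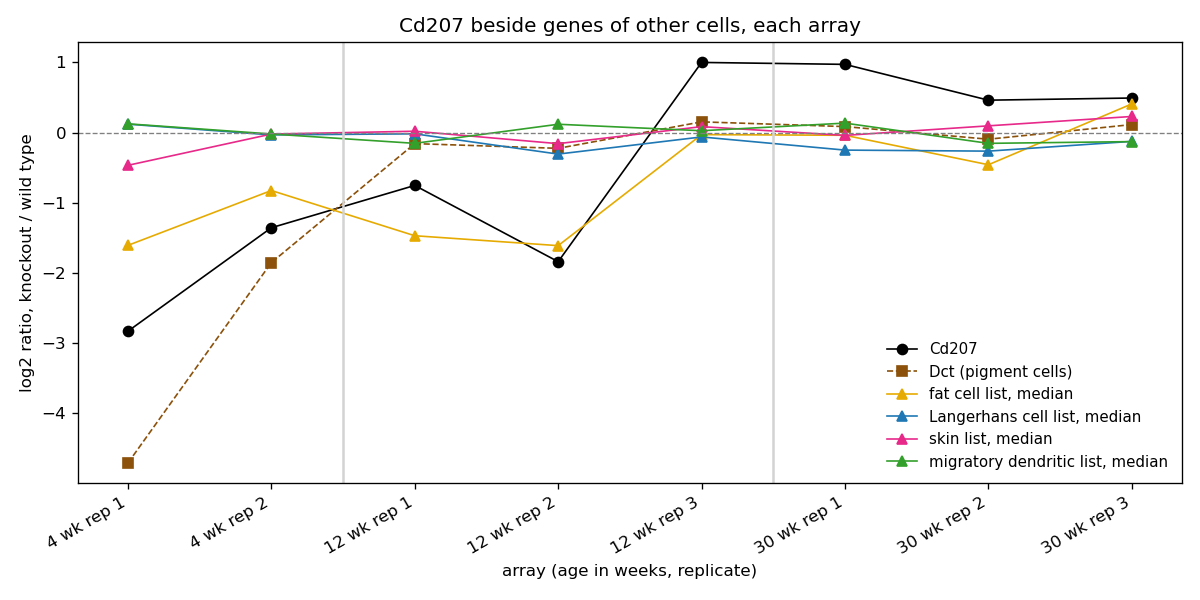
Log2 ratio of knockout over wild type of Cd207 and Dct and the median ratio of 4 gene lists on each of the 8 arrays, in order of age; lines join arrays only to guide the eye. Cd207 and the fat cell list are both lowest on the 4-week arrays and on replicates 1 and 2 of 12 weeks, while the Langerhans cell list lies between −0.31 and 0.12 on all arrays.

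The Langerhans cell list held 9 other genes, among them a ligand that these cells depend on, Il34, and genes that other cells express. Of these 9 genes, 1 rose and 1 fell at 4 weeks, 1 rose at 12 weeks, and 1 rose and 4 fell at 30 weeks. Their median was 0.00 at 4 weeks and −0.22 at 30 weeks. The share called among all genes was 22.7%, 2.61% and 39.1% at the 3 ages. With median centring 3 rose and none fell at 4 and at 12 weeks, and 1 rose and 1 fell at 30 weeks. That setting called 53%, 56% and 28% of all genes at the 3 ages. On the scanner's signals 1 rose and 2 fell at 4 weeks, with a median of −0.26. No test set this list against Cd207. Il34, the ligand on which Langerhans cells depend, was the gene that fell at 4 weeks, with ratios of −0.93 and −0.59 (fitted −0.76 ± 0.17, adjusted p = 0.0151, but 0.03 with median centring). It fell at 30 weeks with ratios of −0.76, −0.77 and −0.67 (fitted −0.74 ± 0.14, adjusted p = 0.0044). Gpnmb, a membrane glycoprotein of macrophages and pigment cells, fell at 30 weeks with −1.76, −1.16 and −0.94 (−1.29 ± 0.25, adjusted p = 0.00461). Epcam, the adhesion molecule that marks Langerhans cells and epithelium, fell by 0.46 ± 0.11 on the log2 scale at 30 weeks (adjusted p = 0.00968) with ratios of −0.55, −0.27 and −0.58. Cd207 lay above 0 on those same 3 arrays. Tgfbr1, a receptor for the factor that maintains Langerhans cells, rose at 30 weeks by 0.67 ± 0.13 (adjusted p = 0.00481). With median centring the calls on Il34 and Epcam at 30 weeks were lost at the same sign (−0.52 and −0.37, adjusted p = 0.0528 and 0.0586).

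The cross-presenting genes did not move in 1 direction. Clec9a, the receptor through which these cells sense dead cells, had a knockout level of 7.64 and 8.24 at 4 weeks, 7.49, 7.68 and 7.86 at 12 weeks and 7.70, 8.25 and 8.03 at 30 weeks. The pool read 7.99 and 8.16, then 8.21, 8.16 and 8.08, then 8.15, 8.26 and 8.14. The ratio was below 0 on 7 of 8 arrays, from −0.71 to 0.09, and the knockout mice lay below every pool value of their age at 12 weeks. Its mean over the ages fell by 0.26 ± 0.08 on the log2 scale (adjusted p = 0.0239), while the 12-week value of −0.47 ± 0.12 missed the threshold (adjusted p = 0.0740). With median centring the mean was 0.072, where the median of all genes was 0.34. The call on the mean was lost without replicate 1 of 4 weeks (−0.19), of 12 weeks (−0.22, adjusted p = 0.0517) or of 30 weeks (−0.22, adjusted p = 0.0593).

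Xcr1, the receptor by which cross-presenting cells find T cells that make the chemokine Xcl1, rose on its brighter probe and not on the other. That name rests on the mean over all 8 arrays. At 12 weeks the other probe had the higher mean level (knockout 7.82 against 7.70, wild type 7.84 against 7.68). At 30 weeks it did so in wild type (8.05 against 7.92) but not in knockout (7.99 against 8.44). The brighter probe had ratios of 0.33 and 0.05 at 4 weeks, −0.08, 0.00 and 0.13 at 12 weeks, and 0.79, 0.24 and 0.54 at 30 weeks. Its 30-week knockout levels of 8.67, 8.19 and 8.46 all lay above the pool values of 7.88, 7.95 and 7.92, a rise of 0.52 ± 0.11 (adjusted p = 0.00593), or 1.44-fold. That call was kept without each of the 8 arrays in turn, the ratio then lying between 0.39 and 0.66, and was 0.59 with slide as a term (adjusted p = 0.0132). The other probe, on the same transcript accession, read −0.12, −0.09 and 0.01 at 30 weeks (fitted −0.07 ± 0.08, adjusted p = 0.552 over 27464 probes, of which 40.1% were called). It was well above background in both channels of every array of 12 and 30 weeks, so dim signal does not set that reading aside. The mean of both probes missed the threshold at 30 weeks (0.23, adjusted p = 0.0502). The mean over the ages, 0.24 ± 0.07 (adjusted p = 0.0174) on the brighter probe, was lost on the mean of both probes (0.14), without replicate 1 of 4 weeks (0.20) and with the GC trend removed (0.17, adjusted p = 0.0539), and was 0.65 with median centring.

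Batf3, the transcription factor required for the cross-presenting lineage, had ratios of −0.31 and −0.45 at 4 weeks, −0.40, −0.04 and 0.17 at 12 weeks, and −0.20, −0.10 and −0.22 at 30 weeks. Its knockout level at 4 weeks was 10.26 and 9.84, against 10.57 and 10.29 in the pool. It lay below 0 on 7 of 8 arrays, and its mean fell by 0.21 ± 0.06 on the log2 scale (adjusted p = 0.0238), whereas with median centring it was 0.40 (adjusted p = 0.00171, median of all genes 0.34). The fall was −0.11 with the GC trend removed (adjusted p = 0.165). The call was also lost without replicate 1 or 2 of 4 weeks (−0.24 and −0.19) and replicate 1 or 3 of 30 weeks (−0.21 for each). At 4 weeks alone the value of −0.38 ± 0.12 missed the threshold (adjusted p = 0.0593), and it was 0.47 with median centring and 0.16 at 30 weeks.

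The other 12 genes of the cross-presenting list gave 2 rises at 4 weeks, no call at 12 weeks, and 4 rises and 1 fall at 30 weeks. At these ages 22.7%, 2.61% and 39.1% of all genes were called. The median of the 12 genes was 0.13, −0.01 and −0.00 at the 3 ages, against 0.02, 0.02 and 0.03 over all genes. With median centring 9, 8 and 5 rose and none fell at 4, 12 and 30 weeks, where 53%, 56% and 28% of all genes were called. Cadm1, an adhesion molecule of these cells, rose at 30 weeks with ratios of 0.75, 0.47 and 0.53 (0.58 ± 0.10, adjusted p = 0.00303). Id2, a transcriptional regulator of this lineage that many lymphocytes also express, had 0.50, 0.40 and 0.31 there (0.40 ± 0.09, adjusted p = 0.00919). Rab7b, a small GTPase of late endosomes, and Ppt1, a lysosomal enzyme, rose by 0.57 ± 0.11 and 0.33 ± 0.07 (adjusted p = 0.00533 and 0.0091). Cd36, a scavenger receptor that fat cells also express, and Ifi205, an interferon-inducible gene, were the members that rose at 4 weeks, by 1.13 and 1.08.

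Irf8, the transcription factor of cross-presenting and plasmacytoid cells that B cells also use, was well above background on all arrays with both probes. Its brighter probe had knockout levels of 14.24 and 14.14 at 4 weeks, 14.44, 14.21 and 14.28 at 12 weeks, and 14.01, 13.87 and 13.97 at 30 weeks. The pool read 14.20 and 14.07, then 14.31, 14.27 and 14.22, then 14.13, 14.03 and 14.10. No contrast passed the test on this probe, and the 30-week ratio was −0.13 ± 0.06 (adjusted p = 0.104), but 0.42 with median centring. The other probe lay below 0 on 8 of 8 arrays, with −0.28 and −0.17, then −0.10, −0.12 and a value just under 0, then −0.38, −0.33 and −0.37. Tested over all probes, where 40.1% were called at 30 weeks and 43% over the mean of the ages, it fell by 0.36 ± 0.06 at 30 weeks (adjusted p = 0.00208) and by 0.22 ± 0.04 over the mean (adjusted p = 0.00189), on the log2 scale. The probes of Irf8 had equal GC content, 45% each.

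**Figure D4:**
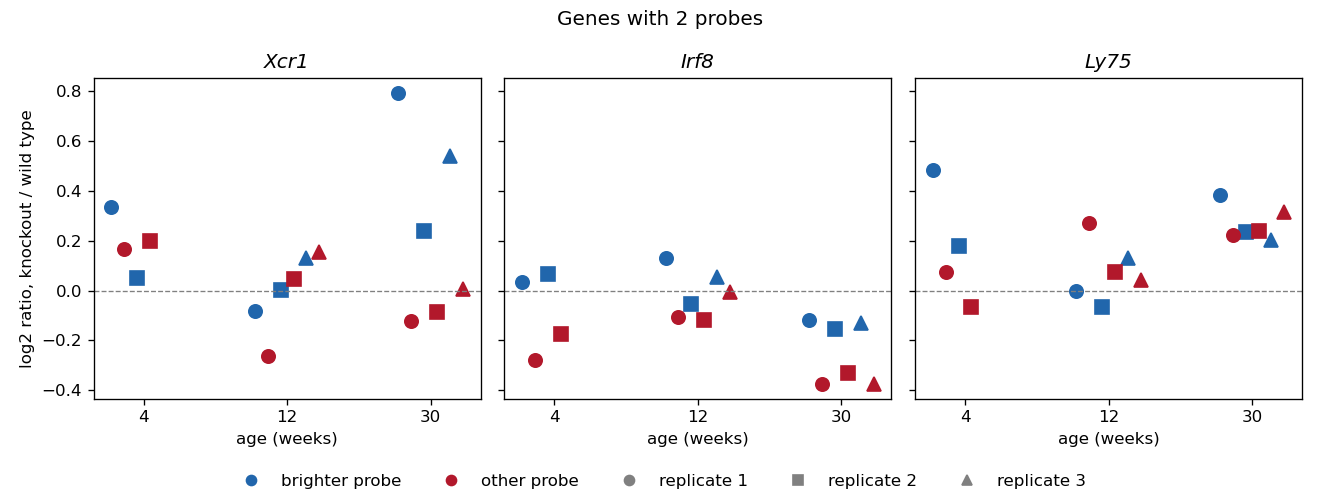
Log2 ratio of knockout over wild type on each array for the genes with 2 probes, by age in weeks, with colours for the brighter and the other probe and shapes for the replicate numbers. At 30 weeks the Xcr1 probes separate (0.24 to 0.79 against −0.12 to 0.01), the Irf8 probes both lie below 0, and the Ly75 probes overlap.

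Flt3, the cytokine receptor that dendritic cell precursors need, lay below 0 on 8 of 8 arrays. Its ratios were −0.10 and −0.08 at 4 weeks, −0.80, −0.39 and −0.01 at 12 weeks, and −0.35, −0.63 and −0.46 at 30 weeks. At 30 weeks the knockout levels of 8.11, 7.80 and 7.95 lay below the pool values of 8.46, 8.44 and 8.41, a fall of 0.48 ± 0.13 on the log2 scale (adjusted p = 0.0187, n = 3). The mean over the ages fell by 0.33 ± 0.08 (adjusted p = 0.0120). With median centring the fitted values at 4 and 12 weeks were 0.11 and 0.05. At 4 weeks the probe was well above background on 1 of 2 arrays in each channel. The 30-week call was lost without replicate 1, 2 or 3 of that age (−0.55, −0.41 and −0.49, adjusted p between 0.0509 and 0.0932), and with slide as a term (−0.45, adjusted p = 0.0814), on the scanner's or the authors' deposited ratios (−0.65, adjusted p = 0.0552 and 0.0556) and with median centring (−0.31, adjusted p = 0.243). The mean was lost on the scanner's or deposited ratios (−0.30, adjusted p = 0.116 for each), with median centring (−0.05, where the median of all genes was 0.34) and without replicate 1 of 4 weeks (−0.32, adjusted p = 0.0571).

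Of 20 other genes of the Flt3 pathway and of dendritic lineage control, 8 rose and none fell at 4 weeks and 1 rose at 12 weeks. At 30 weeks 5 rose and 3 fell. The shares of all genes called were 22.7%, 2.61% and 39.1%. With median centring 15, 17 and 9 rose at 4, 12 and 30 weeks and none fell, where 53%, 56% and 28% of all genes were called. Without the arrays that stand apart 9 rose and 3 fell at 30 weeks, where 35.9% were called. Flt3l, the ligand of Flt3, had ratios of −0.57, −0.58 and −0.71 at 30 weeks, all below 0 as for its receptor (fitted −0.62 ± 0.13, adjusted p = 0.0069, lost with median centring at −0.40 and 0.107). At 4 and 12 weeks Flt3l did not pass (−0.13 ± 0.16 and −0.30 ± 0.13). Tcf4, the transcription factor that specifies plasmacytoid cells, had 0.97 and 0.87 at 4 weeks and a mean of 0.46 ± 0.05 over the ages (adjusted p = 0.000491). Csf2ra, a chain of the GM-CSF receptor, and Zeb2, a transcription factor of plasmacytoid cells and cDC2, rose over the mean of the ages by 0.52 ± 0.05 and 0.53 ± 0.09 (adjusted p = 0.000363 and 0.00187). Csf2ra lay above 0 on all 8 arrays, and Zeb2 on 7, with −0.28 on replicate 2 of 12 weeks.

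Cd209a, a lectin of cDC2 and monocyte-derived cells, gave no call. Its knockout level was 6.80 and 6.39 at 4 weeks, 6.28, 6.29 and 6.49 at 12 weeks and 6.27, 6.13 and 6.32 at 30 weeks, against 6.52 and 6.31, 6.39, 6.64 and 6.62, and 6.36, 6.13 and 6.26 in the pool. At 4 weeks it was well above background on 1 of 2 knockout and on no wild-type arrays, and at 30 weeks on 2 of 3 knockout and 1 of 3 wild-type arrays, so its signal allowed little to be read there. At 12 weeks, where it was well above background in both channels of every array, all 3 ratios lay below 0 (−0.11, −0.35 and −0.12). The fitted ratio was −0.19 ± 0.07 (adjusted p = 0.149). Over 23 other settings it ran from −0.62 to −0.12 and was called in 2. Of 14 other cDC2 genes, 2 rose and 1 fell at 4 weeks, 1 rose at 12 weeks, and 2 rose and 6 fell at 30 weeks. Among all genes 22.7%, 2.61% and 39.1% were called at these ages. With median centring 8, 11 and 5 rose at 4, 12 and 30 weeks and none fell, where 53%, 56% and 28% of all genes were called. Without the arrays that stand apart 4 rose and 3 fell at 30 weeks, where 35.9% were called. Sirpa, the inhibitory receptor by which cDC2 are sorted, had −0.49, −0.49 and −0.51 at 30 weeks, and its mean over the ages fell by 0.19 ± 0.04 on the log2 scale (adjusted p = 0.00438), but was 0.50 with median centring. Esam, an adhesion molecule of a splenic cDC2 subset, lay below 0 on 8 of 8 arrays and its mean fell by 0.27 ± 0.04 (adjusted p = 0.00156), but was 0.24 with median centring. Notch2, a receptor that this subset needs, and Irf4, a cDC2 transcription factor, rose over the mean by 0.25 each (SE 0.05 and 0.06, adjusted p = 0.00375 and 0.00854). Genes of macrophages, with which several of these are shared, gave 1 rise and 5 falls among 13 at 30 weeks, and 2 rises and no fall with median centring.

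Fscn1, which shapes the dendrites of mature migrating cells, had ratios of −0.67 and −0.34 at 4 weeks, −0.60, −0.23 and 0.12 at 12 weeks, and −0.12, −0.23 and −0.57 at 30 weeks. Its knockout levels at 4 weeks were 8.64 and 9.17, against 9.31 and 9.51 in the pool, and at 30 weeks 10.36, 10.15 and 9.84, against 10.48, 10.38 and 10.41. No single age passed the test (adjusted p = 0.0675, 0.311 and 0.115), and with median centring the fitted values were 0.25 at 4 weeks and 0.37 at 12 weeks. The mean over the ages fell by 0.35 ± 0.09 on the log2 scale (adjusted p = 0.0121), and was 0.21 with median centring, against 0.34 for the median of all genes. The call was lost without replicate 1 of 4 weeks (−0.30, adjusted p = 0.0779).

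Ccr7 fell at 4 weeks with ratios of −0.78 and −0.72 (−0.75 ± 0.18, adjusted p = 0.0183) and at 30 weeks with −0.49, −0.60 and −0.78 (−0.63 ± 0.14, adjusted p = 0.0098). With median centring it was 0.14 at 4 weeks and −0.20 at 30 weeks, neither called. T cells also express Ccr7, and of 9 T cell genes none rose and 4 fell at 30 weeks, with 1 fall at 4 weeks (none called at 30 weeks, and 6 and 8 rises at 4 and 12 weeks, with median centring). The part of T cells in the Ccr7 values was not tested. Of the 24 other genes of mature migratory cells, 7 rose and 3 fell at 4 weeks and 1 rose and 1 fell at 12 weeks. At 30 weeks 5 rose and 5 fell. The share called among all genes was 22.7%, 2.61% and 39.1%. With median centring 16 rose at 4 and at 12 weeks and 8 at 30 weeks, and none fell. The share of all genes called was then 53%, 56% and 28%. Over the mean of the ages Nfkb2, a subunit of the NF-kB pathway, fell by 0.41 ± 0.05 on the log2 scale (adjusted p = 0.000659), but was 0.23 with median centring. Socs2, a suppressor of cytokine signalling, Samsn1, an adaptor protein of lymphocytes, and Serpinb6b, a protease inhibitor, rose by 0.57 ± 0.07, 0.59 ± 0.09 and 0.47 ± 0.07 (adjusted p = 0.000613, 0.00126 and 0.00129).

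Ly75, also known as DEC-205, is an endocytic receptor of cross-presenting, Langerhans and other dendritic cells that B cells express at lower levels. Its brighter probe had knockout levels of 9.55 and 9.24 at 4 weeks, against 9.07 and 9.06 in the pool, and 9.60, 9.54 and 9.45 at 30 weeks, against 9.22, 9.31 and 9.25. On this probe Ly75 rose by 0.33 ± 0.10 at 4 weeks (adjusted p = 0.0403), by 0.27 ± 0.08 at 30 weeks (adjusted p = 0.0242) and by 0.21 ± 0.05 over the mean (adjusted p = 0.00949). At 12 weeks the ratios of 0.00, −0.07 and 0.13 lay on both sides of 0. The other probe, well above background on 1 of 2 knockout and no wild-type arrays at 4 weeks, read 0.07 and −0.07 there. It rose at 30 weeks with 0.22, 0.24 and 0.31 (fitted 0.26 ± 0.07, adjusted p = 0.0158 over all probes).

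The brighter Ly75 probe had a GC content of 35%, and all 3 calls were lost with the GC trend removed (0.18 at 4 weeks, 0.12 at 30 weeks and 0.08 over the mean, adjusted p = 0.191, 0.207 and 0.207), while median centring gave 1.07, 0.51 and 0.72. The 4-week call was also lost on the mean of both probes (0.17), without replicate 1 of 4 weeks (0.18, adjusted p = 0.543) and, with its value unmoved, without replicate 3 of 12 weeks or any array of 30 weeks. The 30-week call was lost without any array of that age (0.22 to 0.31, adjusted p between 0.0651 and 0.151), and the mean without replicate 1 of 4 weeks (0.16, adjusted p = 0.0580). Of 13 other C-type lectins and endocytic receptors, 3 rose at 4 weeks, none passed at 12 weeks, and 3 rose and 1 fell at 30 weeks. At these ages 22.7%, 2.61% and 39.1% of all genes were called. With median centring 9, 7 and 5 rose at 4, 12 and 30 weeks and none fell, where 53%, 56% and 28% of all genes were called. Mrc1, the mannose receptor, rose at 30 weeks with 0.47, 0.64 and 0.66 (0.59 ± 0.15, adjusted p = 0.0168) and lay above 0 on all 8 arrays. Clec2d, the ligand of an inhibitory receptor of natural killer cells, and Cd209d, a lectin related to Cd209a, rose at 30 weeks by 0.68 ± 0.12 and 0.42 ± 0.12 (adjusted p = 0.00398 and 0.0260). Mgl2, a galactose-binding lectin of cDC2 and macrophages, fell by 0.21 ± 0.06 on the log2 scale there (adjusted p = 0.0313). With the GC trend removed the calls on Cd209d and Mgl2 were lost (0.27 and −0.09).

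Siglech, a sialic acid-binding receptor of mouse plasmacytoid cells, rose at 4 weeks and not later. Its knockout level at 4 weeks was 8.61 and 8.43, against 7.74 and 8.08 in the pool, so that both knockout mice lay above both pool channels. The ratios of 0.87 and 0.35 gave a fitted rise of 0.61 ± 0.13 (adjusted p = 0.0128, n = 2), or 1.53-fold, and of 0.46 with the GC trend removed (adjusted p = 0.0316). At 12 weeks the knockout level was 9.07, 9.22 and 9.02, against 9.42, 9.33 and 9.26, and all 3 ratios lay below 0 (−0.35, −0.11 and −0.24, fitted −0.23 ± 0.11, adjusted p = 0.212, but 0.31 with median centring). At 30 weeks the ratios of 0.13, −0.11 and 0.21 lay on both sides of 0 (0.07 ± 0.11, adjusted p = 0.612).

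The Siglech ratio was lower at 12 than at 4 weeks by 0.84 ± 0.17 on the log2 scale (adjusted p = 0.0270), and the lower value at 30 than at 4 weeks, −0.54 ± 0.17, missed the threshold (adjusted p = 0.0589). Without replicate 1 of 4 weeks the 4-week ratio was 0.35 (adjusted p = 0.273) and the difference of 12 minus 4 weeks was −0.59 (adjusted p = 0.208). On the scanner's and the deposited ratios the 4-week value was 1.21, with median centring it was 1.15, and the difference was −1.47 on the scanner's and deposited ratios. The difference was also lost without replicate 3 of 12 weeks (−0.84, adjusted p = 0.0730), without replicate 1 or 3 of 30 weeks (adjusted p = 0.0538 and 0.0512, value unmoved), with median centring and with only the arrays of both ages in the fit (adjusted p = 0.152 and 0.0766).

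The other 20 plasmacytoid genes gave 1 rise and 1 fall at 4 weeks, 3 falls at 12 weeks, and 5 rises and 7 falls at 30 weeks. Among all genes 22.7%, 2.61% and 39.1% were called at these ages. With median centring the 20 genes gave 11 rises and no fall at 4 weeks and 9 rises and 1 fall at 12 weeks. At 30 weeks they gave 6 rises and 1 fall. That setting called 53%, 56% and 28% of all genes. Tcf4 was the gene that rose at 4 weeks. Irf7, the master regulator of type I interferon, fell at 30 weeks with ratios of −1.66, −1.52 and −1.57 (−1.58 ± 0.10, adjusted p = 0.000637), which lay below those of the other arrays (−0.73 to −0.21). Bst2, a surface protein that plasmacytoid cells carry and that interferon induces in many cells, had −0.59, −1.20 and −1.26 at 30 weeks (−1.01 ± 0.14, adjusted p = 0.00167), against 0.34 and 0.54 at 4 weeks. Pld4, an endolysosomal nuclease of plasmacytoid and B cells, and Spib, a transcription factor of both, fell at 30 weeks by 0.50 ± 0.06 and 0.48 ± 0.07 on the log2 scale (adjusted p = 0.00129 and 0.00205). With median centring Bst2, Pld4 and Spib kept their sign but lost the call (−0.58, −0.16 and −0.06). B cell genes, with which these are shared, gave 1 rise and 4 falls among 9 at 30 weeks (2 rises and no fall with median centring), and the part of B cells in these values was not tested.

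**Figure D5:**
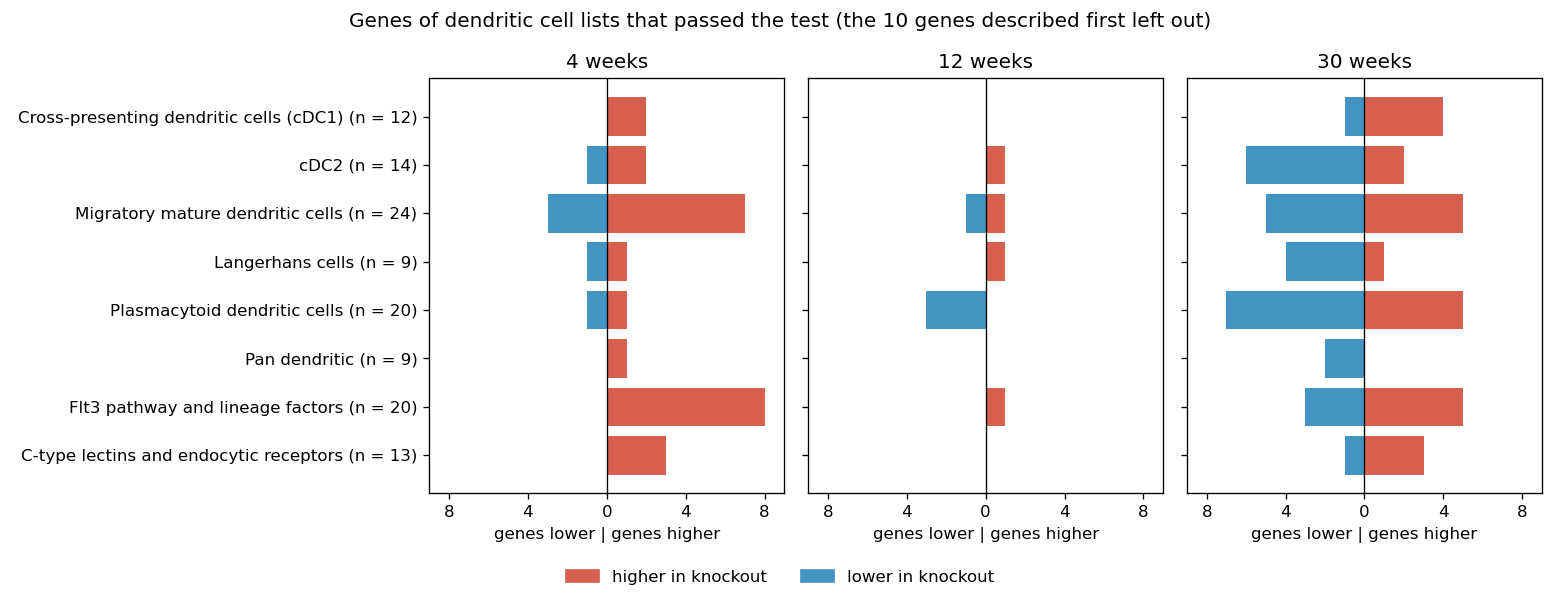
Number of genes that passed the test in each of 8 dendritic cell lists at 4, 12 and 30 weeks, with rises to the right and falls to the left of 0 and the number tested in brackets; the 10 genes described individually are left out. At 30 weeks the cDC2, Langerhans and plasmacytoid lists hold 6, 4 and 7 falls against 2, 1 and 5 rises, where 39.1% of all genes were called. With median centring these are 0, 1 and 1 falls against 5, 1 and 6 rises, where 28% were called.

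Of the 9 other pan-dendritic genes, 1 rose at 4 weeks, none passed at 12 weeks and 2 fell at 30 weeks. The shares of all genes called were 22.7%, 2.61% and 39.1%. With median centring 8, 7 and 2 rose at 4, 12 and 30 weeks and none fell, where 53%, 56% and 28% of all genes were called. H2-Aa, a class II chain that B cells also carry, lay below 0 on all 8 arrays, from −1.10 to −0.20, and its mean fell by 0.53 ± 0.10 on the log2 scale (adjusted p = 0.00342), but was 0.24 with median centring. Dpp4, a surface peptidase of cross-presenting and T cells, and Ciita, the activator of class II genes, rose over the mean by 0.28 ± 0.06 and 0.24 ± 0.08 (adjusted p = 0.00516 and 0.0351). The Ciita call was lost on the scanner's ratios (0.19, adjusted p = 0.105). Of 5 monocyte genes 3 rose at 4 weeks.

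Over the 8 arrays, among 14796 genes, the ratios most like that of Cd207 by Pearson's r were those of Aak1 (0.979), Ankrd33b (0.969), Zfp646 (0.959), Tnpo2 (0.957) and Klf3 (0.957). Those most like the mean of Clec9a and Xcr1 were Pif1 (0.980), Dhrs7 (0.961), Fasn (0.950), Pdlim3 (0.948) and Serpina3m (0.937). Those most like Siglech were Zfp951 (0.986), Zfp563 (0.981), Zfp938 (0.971), Zfp143 (0.970) and Lpar6 (0.970). With 8 points and this many genes, the top values describe these arrays only. The 10 genes themselves were left out of these comparisons.

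The 250 bases before the start site were read from RefSeq (GRCm38.p6) for all 10 genes, with 2 entries for Irf8, and searched on both strands. The AP-1 site TGANTCA, a motif to which Batf3 and its partners bind, was found for Cd207 and for no other member, against 6.75% of 32851 promoters. It ends at the last base before the start site, on the minus strand of chr6:83677858-83678107, and is in capitals here.
Cd207: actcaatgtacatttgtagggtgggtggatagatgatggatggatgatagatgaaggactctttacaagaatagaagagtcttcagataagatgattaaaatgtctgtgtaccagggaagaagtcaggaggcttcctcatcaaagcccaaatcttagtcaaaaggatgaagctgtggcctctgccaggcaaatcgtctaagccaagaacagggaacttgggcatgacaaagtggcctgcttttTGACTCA
The interferon response motif (GAAA and GAAA with 2 bases of any kind between), the ETS-IRF motif (GGAA and GAAA, likewise) and the PU.1 letters GAGGAAGT were in none of these windows, against 2.98%, 2.3% and 2.44% of all promoters. The letters TTCG, which the DNA-binding domain of Deaf1 recognises, were in the windows of Xcr1, Batf3, Flt3, Fscn1 and Ly75, and in 38.7% of all promoters. A match is a description of these letters and not a bound site.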

How the data were processed

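The scanner files hold mean spot and median local background intensity of both dyes, as deposited, written by Agilent Feature Extraction 9.5.3.1 (4 weeks) or 10.2.1.3 (12 and 30 weeks) per the file headers. The log10 ratio of the scanner's processed signals (red over green) in the same files was deposited too. The deposited value table holds the authors' log2 ratio of knockout over wild type per probe. The labels' protocols give RNA extraction with Trizol and columns and linear amplification. No sample was left out.

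Background was corrected by normexp (offset 50 on the mean signal) and the dyes were balanced by loess on each array, control spots having no weight, in limma 3.58.1 (R 4.3.3). Spots of a probe were averaged, leaving out outlier flags. The filter asked for 1 age at which every array had the probe well above background in a given channel (27464 probes passed), and the brightest probe stood for a gene (18410 genes, 27 missing values by gene and array, at least 6 values per gene). Levels were scaled between arrays with Aquantile. The model had 1 mean per age over the 8 arrays (5 residual degrees of freedom) and 7 two-sided contrasts, with Benjamini-Hochberg adjustment per contrast over all genes. Probes were tested alike over all probes. The number of arrays limits the precision. The fit was tested on simulated data. The labels call the arrays biological replicates. Deviations of same-numbered arrays of different ages correlated at −0.08 to 0.24, and those of other pairs at −0.24 to 0.18. These are too few to decide whether the arrays are paired.

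The 10 genes and all 15 gene lists were chosen with earlier results of these data known. From each list, up to 4 genes with the smallest p were named in the contrast where the list had most calls. Deaf1, Ccr7, Flt3l, Krt14, Pmel, Cd36 and Ifi205, and values of list genes outside that contrast, were chosen after their values were seen. Probes were named through RefSeq accessions (24375), the symbol in the files (6301) or a RefSeq synonym (2426), and otherwise as in the files (8072).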

Additional observations from a re-analysis of the deposited data

Results flagged for a closer look

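Cd207 was singled out because its knockout effect differed between ages in a test of the difference itself: the log2 ratio was higher by 2.74 ± 0.73 at 30 than at 4 weeks (adjusted p = 0.0349), with 0.97, 0.46 and 0.49 at 30 weeks and −2.83 and −1.36 at 4 weeks. Siglech was singled out in the same way, its log2 ratio differing by −0.84 ± 0.17 between 12 and 4 weeks (adjusted p = 0.0270), with −0.35, −0.11 and −0.24 at 12 weeks and 0.87 and 0.35 at 4 weeks. Ages, pools, slides and scanners cannot be told apart in either difference. Both calls were lost with median centring and with replicate number as a block (adjusted p = 0.0577 and 0.0887 for Cd207, 0.152 and 0.0675 for Siglech).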

How the results depend on the processing

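The number of the 10 genes called moved with the processing, and the cause was not tested. The share of all genes called moved too, and is given in the same order. At 4 weeks the count was 3 (22.7% of all genes), and became 6 on the scanner's and on the deposited ratios (34.8% and 35.3%). It was 5 each with a normexp offset of 10, median centring, a filter on both channels of all arrays or slide as a random block (29.3%, 53%, 37% and 35.9%). With the replicate block it was 1 (14.9%). At 12 weeks it was 0 (2.61% of all genes), and became 4 with median centring (56%), 4 with slide as a random block (48.8%) and 1 with the replicate block (1.71%). At 30 weeks it was 3 (39.1% of all genes), and became 5 with the arrays of that age alone (46.8%) and 6 with array weights (55.2%). It was 5 with slide as a random block (49%) and 1 with both arrays that stand apart left out (35.9%). Over the mean of the ages it was 6 (44.1% of all genes), and became 3 with the GC trend removed (40.5%). For 12 minus 4 weeks it was 1 (6.98% of all genes), and became 2 on the scanner's and the deposited ratios and with an offset of 10 (11.7%, 11.9% and 7.95%). It was 4 with slide as a random block (24.3%). It was 0 with median centring, with the arrays of both ages alone and with the replicate block (0.277%, 0.994% and 1.95%). For 30 minus 12 weeks it was 0 (0.777% of all genes), and became 1 with array weights (21.7%). For 30 minus 4 weeks it was 1 (18.8% of all genes), and became 3 on the scanner's and the deposited ratios (23.9% and 24.3%). It was 2 with an offset of 10, the filter on both channels or the arrays of both ages alone (21.8%, 28.8% and 27.9%). It was 2 as well with array weights, slide as a random block or the GC trend removed (27.8%, 32.7% and 19.8%). With the replicate block it was 0 (11.6%). Each array of 12 or 30 weeks was also left out in turn. The count was then 1 to 5 at 4 weeks (17.6% to 28.1% of all genes) and 1 to 3 at 30 weeks (21.4% to 43.2%). It was at most 7 over the mean (35.4% to 47.4%). For 12 minus 4 weeks it was 0 to 1 (2.67% to 9.61%), and for 30 minus 4 weeks 0 to 1 (8.56% to 24.9%). Without an array of 4 weeks that age keeps 1 array, so those counts are not given.

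Cd207 at 4 weeks was −1.37 with median centring (adjusted p = 0.0696), −1.75 with the replicate block (adjusted p = 0.104) and −2.83 to −1.36 without each array in turn. With median centring 19 of the 70 fitted values of the 10 genes changed sign, 14 of them values at an age or over the mean and 5 differences between ages. Of these, 6 passed the test under one of the settings: the means of Clec9a (0.072), Batf3 (0.40), Irf8 (0.78) and Fscn1 (0.21), and Batf3 at 4 weeks (0.47) and 12 weeks (0.57). The other 13 passed under neither. Of 58 values of named list genes, 28 kept their call with median centring, 17 lost it and 13 changed sign, while 55 kept it on the scanner's signals, 54 with the GC trend removed and 57 without both arrays that stand apart. Nothing in the labels pairs the arrays by replicate number, and the correlations of their deviations are too few to decide it. The slide correlation used as a random block was −0.26. Removing the GC trend and leaving out both arrays that stand apart were chosen after seeing the data. Dim signal limits Cd209a at 4 and 30 weeks. At 4 weeks only, it limits Flt3 and the second probes of Xcr1 and Ly75.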
